A study of Caenorhabditis elegans with 8 samples.

Results

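Introns of at most 45 nt, close to the lower end of the lengths that the worm spliceosome removes, were followed as a group in whole adult Caenorhabditis elegans. They were taken from the authors' table of reads that span an intron (junction reads) by the listed length alone, with 1 copy kept where an intron stood on both strands, and 2129 of the 20324 listed introns were members (10.5%). The other 18185 introns are called longer introns here, and 10 introns of spk-1, the gene targeted by RNA interference, were left out. Of the 10, 1 had 43 nt and would have been a member.

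The study compared wild-type N2 worms fed bacteria that carried the empty vector L4440 (control) with worms fed bacteria that expressed double-stranded RNA of spk-1, called spk-1(RNAi), with 4 libraries in each group. Animals were raised at 20 °C, moved to the feeding bacteria at the L4 stage and kept there at 25 °C for 24 h, and 100 or more whole adults were pooled for each condition before polyadenylated RNA was sequenced with its strand marked. The labels do not tie the libraries to separate cultures, so the spread behind every p-value is that between libraries and may be technical.

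An intron is recognised by its donor site at the 5′ end and its acceptor site at the 3′ end. SR proteins, which carry stretches of serine and arginine, bind exons and help the splicing machinery find these sites, and SPK-1 is the worm kinase that phosphorylates SR proteins. Worm introns are mostly short, and a very short intron leaves little room for donor, branch point and acceptor to be bound at the same time.

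The targeted gene and the depth of the libraries came first as a check of the labels. The 8 introns of spk-1 other than those after exons 6 and 7 had 382, 380, 405 and 491 CPM (reads scaled to the library's total junction reads) together in control replicates 1 to 4, and 60.5, 75.9, 135 and 149 in spk-1(RNAi) replicates 1 to 4. The groups did not overlap, and each of the 8 introns was lower in every pair of same-numbered libraries. The introns after exons 6 and 7 went the other way and held from 0.165% to 6.25% of all junction reads after spk-1(RNAi), against at most 0.0137% in controls. Libraries held from 1821717 to 47299659 junction reads, and in both groups replicates 1 and 2 were the shallow ones. Genes of germline, oocyte, yolk and body wall muscle were listed, while the muscle gene myo-3 and the sperm genes msp-19 and spe-9 were not listed. Every listed intron had at least 21 reads in every control library, so presence in all controls follows from being listed. A gene without a listed intron has no value here, so its absence is not a measure of its expression.

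Short introns formed the lower shoulder of a continuous length distribution. The shortest had 23 nt, and no other listed intron was below 36 nt. There were 2 introns of 36 nt, 1 of 38 nt and 8 of 39 nt, and from 38 nt the number rose with each nucleotide, with 19 introns of 40 nt, 65 of 41 nt, 163 of 42 nt, 386 of 43 nt, 595 of 44 nt and 889 of 45 nt. Just outside the limit stood 1108 introns of 46 nt and 1156 of 47 nt, so the limit cuts through a rise and not through a gap.

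**Figure D1:**
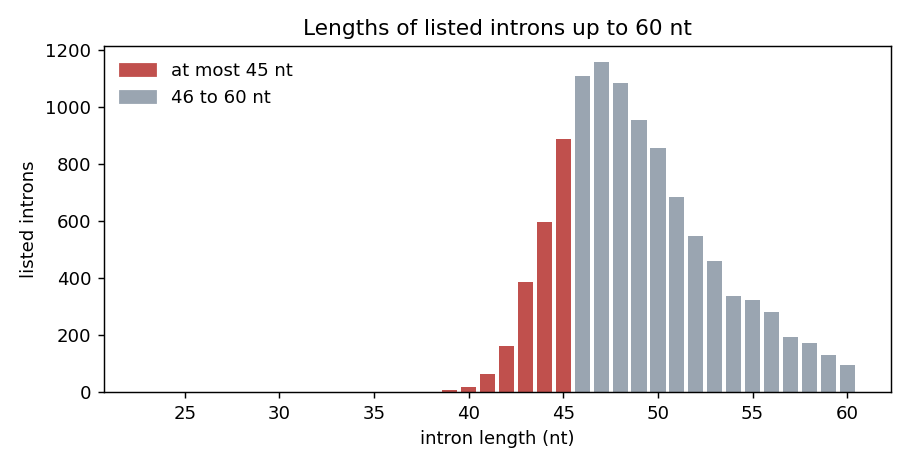
Number of listed introns at each length from 23 to 60 nt, with introns of at most 45 nt in red and longer ones in grey. The counts rise from 65 introns at 41 nt to 889 at 45 nt and reach 1156 at 47 nt.

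Short and longer introns had like shares in the annotation and in coding sequence. Of those with a named gene, 98.4% had an intron of the same length in the gene's reference annotation, against 98.2% of longer introns, and 97.8% and 97.7% of the matched ones lay within coding sequence. First introns made up 22.4% of short and 22.9% of longer introns, but the median place along the gene, from 0 for the first intron to 1 for the last, was 0.4 for short (n = 1897) and 0.5 for longer introns (n = 15656). The share of short introns ran from 9.33% of the listed introns on chromosome III to 11.6% on chromosome II. Another difference was the share of lengths divisible by 3, an intron property that keeps the reading frame if the intron is left in, which was 49.9% of short and 31.1% of longer introns. The single length of 45 nt gives 889 of the 1062 short introns in that count.

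The short introns lay in 1474 genes, of which 1340 also had longer introns. Most of the genes, 1056, had 1 short intron. The gene with the most was gld-3, which codes for an RNA-binding partner of a germline poly(A) polymerase and had 10 short introns among 19 listed. T25C12.3 on chromosome X also had 10, among 28. The lipid transfer protein gene vps-13 had 8 of 18, and csr-1, which codes for a germline Argonaute protein, had 7 of 10.

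Read depth over short introns was close to that over the longer introns of the same gene. For each gene, the mean reads per short intron were divided by the mean reads per longer intron in the same library, which takes out the expression of the gene. The median of this ratio over the 1340 genes was −0.06, −0.12, −0.20 and −0.18 on the log2 scale in control replicates 1 to 4, and −0.07, −0.13, −0.15 and −0.14 in spk-1(RNAi) replicates 1 to 4. All 8 medians were below 0, and the groups overlapped. In 222 genes the short introns were below the longer ones in all 8 libraries, and in 106 genes they were above them in all 8. Mapping across a short junction and across a long one may differ, and its part in these levels was not tested.

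A median level below the mean of the other introns was not a property of the members alone. Among genes with at least 3 longer introns, the median short intron had 87.7% of the mean reads of the longer introns (n = 1332 introns). Each longer intron was set against the other longer introns of its gene in the same way, and the median was 90.5% for lengths of 46 to 60 nt (n = 6499), 93.9% for 61 to 300 nt (n = 3307) and 90.2% above 300 nt (n = 4159). A level under 50% was seen in 6.68% of short introns and in 6.85%, 5.75% and 6.88% of these longer classes. A level over 200% was seen in 2.70% of short introns and in 2.48%, 3.75% and 2.57% of them. Every class had a median below the mean it was set against, so a low median does not by itself show fewer reads over short introns. With median reads per intron in place of means, the median level of short against longer introns over genes was −0.06 on the log2 scale. With means it was −0.13. The part of the mean as divisor in the levels by length class was not tested. These are descriptions over introns, which share genes and libraries.

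**Figure D2:**
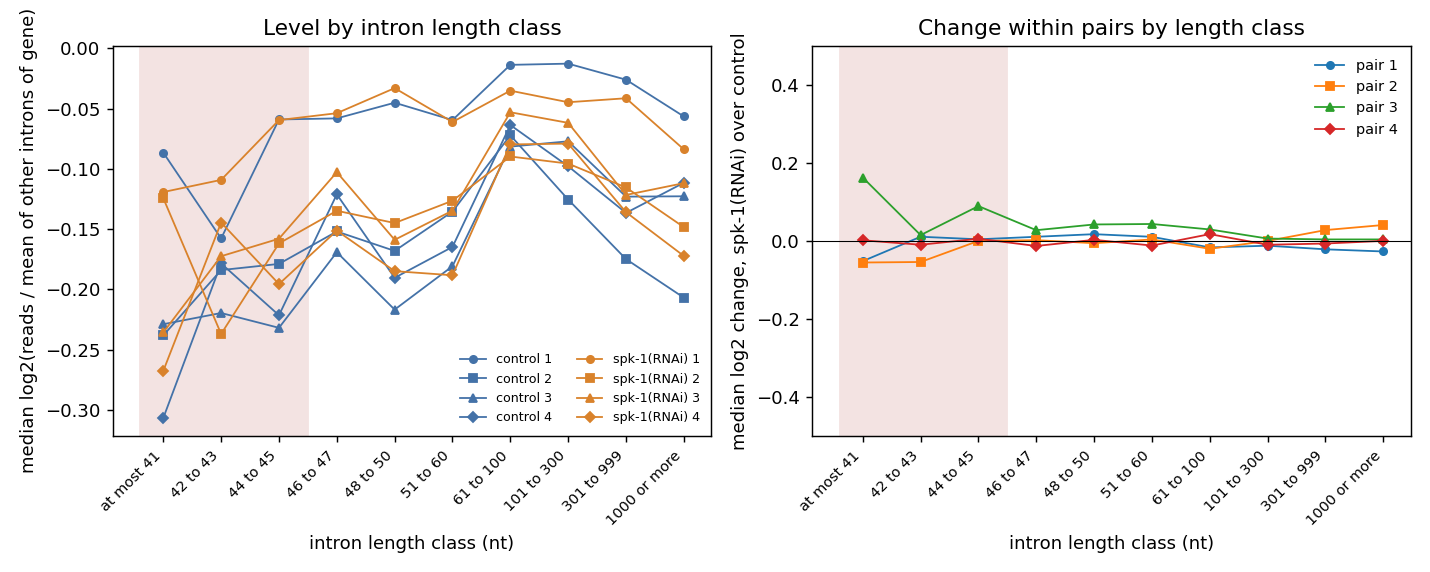
Left, the median over introns of the log2 ratio of an intron's reads to the mean of the other introns of its gene, by length class (nt, horizontal axis), with 1 line per library. Right, the median change of that ratio within each pair of same-numbered libraries, spk-1(RNAi) over control, on the log2 scale. The shaded classes hold the introns of at most 45 nt. Medians lie below 0 in every library in these classes and in all longer classes alike, and the pair lines stay within 0.17 of 0.

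Abundant short introns lay in genes of yolk and ribosomes. The highest mean was that of the fourth intron of vit-5 (yolk protein), 45 nt on chromosome X at 3408049 to 3408093 of ce10, with a mean of 2671 CPM. It was followed by introns of rpl-25.2 (1343 CPM), rpl-33 (1296 CPM), rpl-24.1 (1198 CPM) and rps-14 (1075 CPM), all genes of ribosomal proteins. This order was not that of every library: the rpl-25.2 intron had 2010 to 2709 CPM in replicates 1 and 2 of both groups, above the vit-5 intron there, and 377 to 473 CPM in replicates 3 and 4, below the other 4. In the usage test, which compares an intron with the other introns of its gene, none of the 5 passed, and the changes ran from −0.12 in vit-5 to 0.16 in rpl-25.2 on the log2 scale. Members spanned 3.65 to 2671 CPM, with a median of 21.2 CPM.

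Among genes with 2 or more longer introns, members were ranked by the mean over libraries of the log2 level within their gene. The first intron of cyb-1, which codes for a cyclin B, has 42 nt and had 188%, 331%, 772% and 650% of the mean reads of its gene's longer introns in control replicates 1 to 4, and 183%, 203%, 492% and 704% in spk-1(RNAi) replicates 1 to 4. It was above the longer introns in all 8 libraries, and the groups overlapped. Introns of mrpl-9 (mitochondrial ribosomal protein), hat-1 (histone acetyltransferase), F55A12.1 and E02H1.5 were the next highest in this rank.

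At the other end, the 43 nt intron of acs-19, which codes for an acetyl-CoA synthetase, had 9.88%, 23.5%, 14.5% and 15.01% of the mean of the longer introns in controls and 11.9%, 11.098%, 15.01% and 7.05% after spk-1(RNAi). It was low in all 8 libraries, and it shares its donor with a longer listed intron. The 36 nt intron of plin-1 (perilipin, a coat protein of lipid droplets) also shares a site with another intron and had 14.3% ± 3.04 in controls and 12.96% ± 4.88 after spk-1(RNAi) (SD, n = 4 in each group). Introns of par-5, R10D12.13 and wdr-37 completed the 5 lowest.

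The shortest member is a special case. The 23 nt intron of xbp-1 on chromosome III at 4194527 to 4194549 is not an intron of the reference annotation, and this piece of the xbp-1 messenger, which encodes a transcription factor of the unfolded protein response, is known to be cut out by the nuclease IRE-1 and not by the spliceosome. It had 189, 27, 2279 and 1160 reads in control replicates 1 to 4, and 126, 40, 3598 and 1841 in spk-1(RNAi) replicates 1 to 4. Relative to the mean of the gene's 2 other introns, of 50 and 54 nt, this was 38.4%, 37.8%, 51.4% and 51.3% in controls and 49.9%, 30.1%, 81.8% and 63.8% after spk-1(RNAi). The share was higher after spk-1(RNAi) in 3 of 4 pairs, the groups overlapped, and the log2 difference in usage was 0.32 ± 0.62 (SE, unadjusted p = 0.605 in edgeR's diffSpliceDGE). With the replicate number as a block, the value was 0.23 ± 0.19 (unadjusted p = 0.268).

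The next shortest members had group means close to each other for their spread, but single pairs differed. The 36 nt intron of vbh-1, which codes for a DEAD-box RNA helicase, had 83.7% ± 10.3 of the mean of the longer introns in controls and 80.5% ± 25.3 after spk-1(RNAi) (SD, n = 4 in each group). The 38 nt intron of K01G5.8 had 365% ± 130 and 317% ± 195. That gene has only 1 longer listed intron, of 47 nt at the same donor, so its level is the ratio of 2 introns that share a site. The 39 nt intron of ife-3, which codes for a cap-binding initiation factor, had 59.5% ± 20.6 and 54.9% ± 16.8. It also shares its donor with a longer intron. For all 3 introns the difference of the means was smaller than the SD of either group. By pair, 1 to 4, the log2 change was 0.01, −0.56, 0.52 and −0.35 in vbh-1. It was 0.22, −1.03, −0.15 and −0.24 in K01G5.8, and 0.10, −0.57, 0.31 and −0.21 in ife-3.

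Whether short introns as a class responded to spk-1(RNAi) was asked first by their reads. In edgeR's quasi-likelihood test of reads per intron with Benjamini-Hochberg adjustment over all introns, 0 of 2129 short introns passed an adjusted p of 0.05 (none of the 20314 tested introns did), and 14 had an unadjusted p below 0.05, which is 0.658% against 0.802% of all 20314 introns tested. With the replicate number as a block, 0 passed again, against 0.0246% of all introns, and 201 (9.44%) had an unadjusted p below 0.05, against 8.36%. DESeq2's Wald test called 0 short introns, against 0.00492% of all introns, with 44 at an unadjusted p below 0.05 (2.07% against 1.92%). With the block it called 4, against 0.202%, with 157 unadjusted (7.37% against 6.2%). In RNA from whole animals, fewer cells of a type and less RNA per cell cannot be told apart in such reads.

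The second question was whether short introns changed against the other introns of their own gene. These others can include short introns, and 1952 short introns lay in genes that also had longer ones. In edgeR's diffSpliceDGE test of usage, 0 of 2016 short introns passed, and 1 had an unadjusted p below 0.05, against 0.0853% of 18762 introns tested. That share of all introns, like the 0.802% for reads per intron, is far below the 1 in 20 that chance gives. The fit without the block is thus conservative, and 0 calls or high adjusted p-values in it do not show that short introns were unchanged. With the replicate block, 0 passed, against 0.0107% of all introns, and 73 (3.62%) had an unadjusted p below 0.05, against 2.92%. limma's voom with diffSplice called 0, with 32 unadjusted (1.59% against 1.32%). The shares of all introns with the block and in limma were also below 1 in 20, so the 0 calls there carry the same limit. The values of the groups did not overlap for 12 of the 2016 short introns, 0.595% against 0.64% of all introns.

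Summed per gene, short against longer introns gave the same count. In diffSpliceDGE, 0 of 1340 genes passed without the block, with 1 unadjusted (0.0746%), and 0 passed with it, with 30 unadjusted (2.24%). limma's diffSplice called 0, with 17 unadjusted (1.27%). All of these shares were below the 1 in 20 that chance gives, so these 0 calls do not show that the sums were unchanged. The median change over genes was 0.01 on the log2 scale, and by pair it was 0.01, −0.03, 0.06 and 0.02 for pairs 1 to 4. The sign was not the same in all pairs, and the spread of the 4 values (SD 0.0373) was larger than the median change.

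Single genes differed by more than the median, in both directions. The change was within 0.25 on the log2 scale in 898 of the 1340 genes (67.0%) and larger than 1 in 6 genes, of which 2 were higher and 4 lower after spk-1(RNAi). The short introns were higher in all 4 pairs in 138 genes (10.3%) and lower in all 4 in 105 (7.84%). Such shares were not counted for longer introns. The values of the groups did not overlap in 10 genes (0.746%), 5 in each direction. This is near the 0.64% of all introns whose usage did not overlap between the groups, so it does not set the short introns apart.

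By usage, 327 of the 2016 short introns tested moved the same way in all 4 pairs. This share was not counted over all introns, so it does not set the short introns apart and served only to pick introns to name. The lowest unadjusted p among the 327 was that of pdzd-8, whose mammalian counterpart is a protein of the endoplasmic reticulum that carries lipids. Its intron has 44 nt, lies after exon 4 on chromosome IV at 8976579 to 8976622, and is 1 of 16 listed introns of the gene. It had 88.2%, 80.6%, 85.6% and 49.0% of the mean reads of the longer introns in control replicates 1 to 4, and 108%, 98.2%, 213% and 227% in spk-1(RNAi) replicates 1 to 4. All 4 spk-1(RNAi) libraries were above all 4 controls, and replicates 3 and 4 gave the larger part of the difference. Usage differed by 0.93 ± 0.42 on the log2 scale (SE, unadjusted p = 0.0295, adjusted p = 0.99995 in diffSpliceDGE), and with the replicate block by 1.05 ± 0.27 (adjusted p = 0.286). It did not pass in either fit. In pairs 3 and 4 alone it differed by 1.58 ± 0.33 and passed (adjusted p = 0.0252, against 0.0266% of all introns called in that fit).

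The intron of par-5, which codes for a 14-3-3 protein needed for the polarity of the embryo, was low throughout and lower after spk-1(RNAi). It has 44 nt, lies on chromosome IV at 11820758 to 11820801, and falls outside the coding sequence in the reference annotation. It had 30.2%, 16.7%, 16.2% and 16.5% of the mean of the longer introns in controls and 18.03%, 6.83%, 10.4% and 13.1% after spk-1(RNAi). Every pair was lower, but spk-1(RNAi) replicate 1 was above 3 of the controls, so the groups overlapped. Usage differed by −0.66 ± 0.40 (SE, adjusted p = 0.99995 in diffSpliceDGE), with the block by −0.71 ± 0.20 (adjusted p = 0.615), and as the short against longer sum with the block it had the lowest adjusted p of all genes, 0.201.

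In the gene with the most short introns, gld-3, the members did not move together. The mean change of its 10 short introns ran from −0.62 to 0.36 on the log2 scale, with 6 higher and 4 lower. The short introns together stood at 101.4% ± 13.6 of the longer ones in controls and 101.4% ± 9.91 after spk-1(RNAi) (SD, n = 4 in each group). The lowest was the 44 nt intron after exon 15, on chromosome II at 7135420 to 7135463, which had 56.0%, 80.1%, 105% and 107% in controls and 43.997%, 54.5%, 62.0% and 61.2% after spk-1(RNAi). It was lower in all 4 pairs, the groups overlapped, and its usage differed by −0.63 ± 0.19 with the block (SE, adjusted p = 0.99995 in diffSpliceDGE).

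In other genes with many short introns the group means of the set were close to each other for their spread, but single pairs differed. Short introns of vps-13 stood at 78.6% ± 10.2 of the longer ones in controls and 80.5% ± 12.7 after spk-1(RNAi), those of csr-1 at 103% ± 2.53 and 103% ± 12.5, and those of T25C12.3 at 116% ± 20.7 and 109% ± 11.8 (SD, n = 4 in each group). For each of the 3 genes the difference was smaller than the SD of either group. Within a gene the short introns differed more among themselves than between the groups: their mean levels ran from 42.8% to 145% in vps-13 and from 44.2% to 174% in csr-1.

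Among introns higher after spk-1(RNAi) in all 4 pairs was that of npp-21, which codes for a nuclear pore protein. It has 44 nt, lies on chromosome II at 7602678 to 7602721, and had 129%, 59.8%, 60.2% and 73.0% of the longer introns in controls and 160%, 97.9%, 109% and 157% after spk-1(RNAi). Control replicate 1 stood inside the range of the spk-1(RNAi) libraries. The 44 nt intron of air-1 (the Aurora A kinase of the mitotic spindle) had 94.8% ± 40.4 in controls and 144% ± 16.99 after spk-1(RNAi), the 42 nt intron of B0035.15 had 53.4% ± 22.9 and 95.3% ± 29.1, the 45 nt intron of bath-44 had 122% ± 53.0 and 200.04% ± 38.8, and the 45 nt intron of tex-2 had 52.9% ± 18.1 and 104% ± 64.7 (SD, n = 4 in each group).

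Among those picked that were lower was the 44 nt intron of ari-1.2, which codes for a ubiquitin ligase of the Ariadne family. It had 63.7%, 142%, 218% and 166% in controls and 52.8%, 45.5%, 66.3% and 133% after spk-1(RNAi), and the groups overlapped. Introns of gcc-2 (a golgin) with 67.9% ± 12.7 and 43.9% ± 23.3 and of cka-1 (a choline kinase) with 120% ± 86.1 and 58.1% ± 24.8 were also lower in all 4 pairs. The intron of F30F8.1, with 150.0% ± 170 and 69.6% ± 63.1, was lower in all 4 pairs against all other introns of its gene, but against the longer ones pair 1 had 110% in the control and 114% after spk-1(RNAi). Without control replicate 2, which had 400%, its log2 difference in usage was 0.016. None of these introns of npp-21, air-1, B0035.15, bath-44, tex-2, ari-1.2, gcc-2, cka-1 and F30F8.1 passed diffSpliceDGE with or without the block, and the lowest adjusted p among them was 0.541, that of F30F8.1 with the block.

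By the sum of short against longer introns, sel-2, a neurobeachin-like gene, had 1 short and 19 longer introns and had 95.2% ± 29.2 in controls and 48.6% ± 18.9 after spk-1(RNAi) (SD, n = 4 in each group), lower in all 4 pairs, with an adjusted p of 0.99954 in diffSpliceDGE. The short intron of F35G12.12 had 59.4% ± 23.2 and 90.1% ± 10.03, higher in all 4 pairs. Those of clec-88 and Y55D9A.2 were higher in 3 and 2 of 4 pairs.

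**Figure D3:**
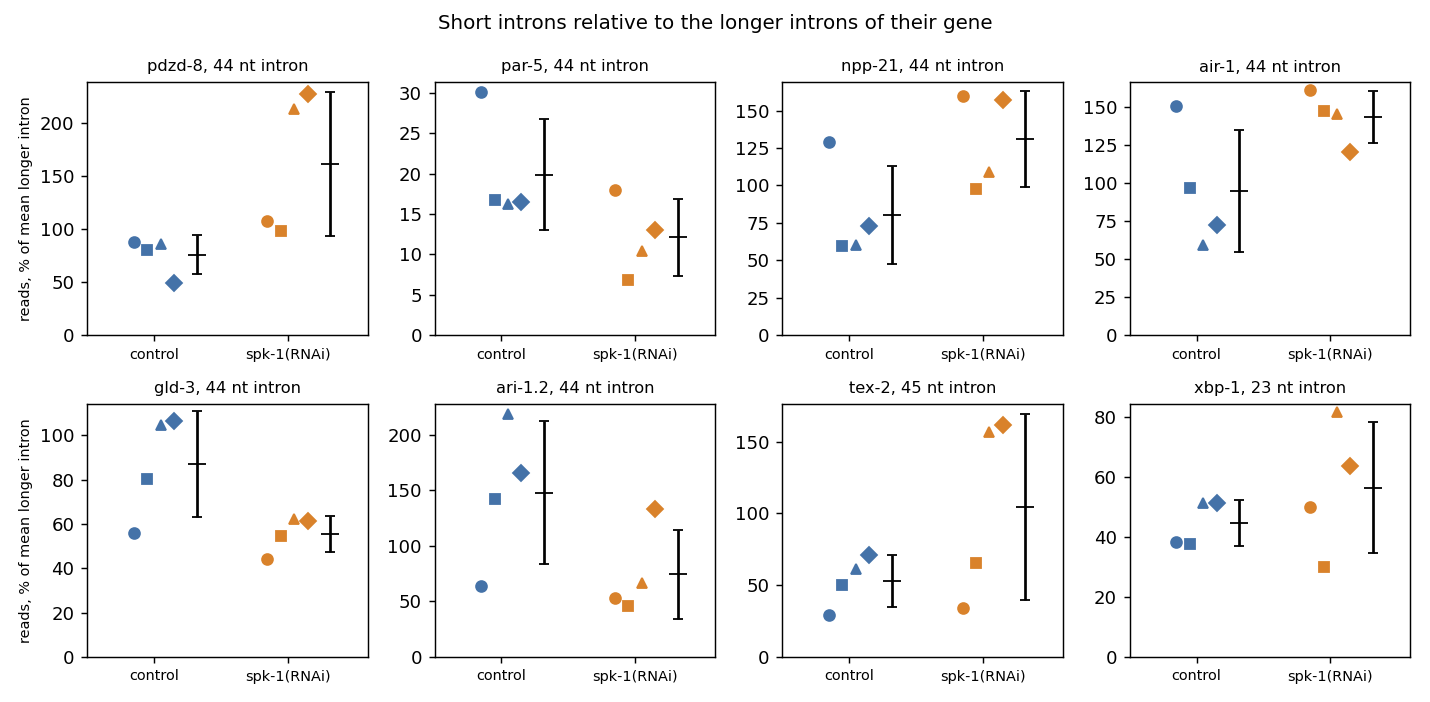
Reads of 8 short introns as a percent of the mean of the longer introns of the same gene (vertical axis), in 4 control libraries (blue) and 4 spk-1(RNAi) libraries (orange), with circle, square, triangle and diamond for replicates 1 to 4 and bars for the mean ± SD. In pdzd-8 all spk-1(RNAi) points lie above the controls, while in the other 7 introns the groups overlap.

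Pairs 1 and 2 and pairs 3 and 4 did not always give the same direction. The clearest case was a 43 nt intron of K04G7.1, on chromosome III at 7162749 to 7162791, which was named after its values were seen. It had 135%, 136%, 263% and 308% of the longer introns in controls and 171%, 192%, 57.7% and 96.4% after spk-1(RNAi). It was higher after spk-1(RNAi) in pairs 1 and 2 and lower in pairs 3 and 4. In pairs 3 and 4 alone, usage fell by 1.47 ± 0.25 on the log2 scale (SE, adjusted p = 0.00378 in diffSpliceDGE), and over all pairs it differed by −0.43 ± 0.46 (adjusted p = 0.99995). Tissue markers also differed between these pairs: in both groups the germline gene pgl-1 had 433 to 683 CPM in replicates 1 and 2 and 247 to 320 in replicates 3 and 4, the germline gene glh-1 had 311 to 554 and 650 to 776, and the muscle myosin gene unc-54 had 262 to 534 and 823 to 971. Their part in the opposite directions was not tested.

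By reads per intron, pairs 3 and 4 alone called 6 short introns, against 0.231% of all introns, and these were also named after their values were seen. Besides K04G7.1 and pdzd-8 they were introns of Y48A6C.4 and apc-11 (a subunit of the anaphase-promoting complex), which were lower, and of plrg-1 and syf-2, which code for spliceosome proteins and were higher. The 45 nt intron of plrg-1 had 74.2 and 83.3 CPM in control replicates 3 and 4 and 184 and 253 CPM in spk-1(RNAi) replicates 3 and 4. In replicates 1 and 2 it had 38.4 and 149 CPM in controls and 40 and 73.3 CPM after spk-1(RNAi), so the pairs did not share a direction. The log2 fold change of plrg-1 in pairs 3 and 4 was 1.404 ± 0.21 (SE, adjusted p = 0.00985 in edgeR's quasi-likelihood test), and its usage within the gene did not pass (adjusted p = 0.709).

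The 4 short introns that DESeq2 called with the block lay in C08F11.12, ZK105.1, pud-4 and par-5, and were again named after their values were seen. In edgeR with the block their adjusted p-values were 0.117, 0.255, 0.229 and 0.148. The first 3 were higher and par-5 lower after spk-1(RNAi), and in C08F11.12 and ZK105.1 the usage within the gene differed by 0.15 and 0.16 on the log2 scale without the block and did not pass. pud-4 has near-identical relatives in the genome, to which its reads may also map, and its value is uncertain.

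Short introns that compete with another intron for a donor or acceptor were read site by site. Of 150 shared sites, 41 held a short intron, 39 of them donors, where the short and the longer intron end at different acceptors. The partner was 4 to 15 nt longer at every one of the 41 sites, by 6 nt at 18 and by 9 nt at 11. The distance was divisible by 3, which keeps the reading frame, at 35 sites (85.4%). At the other 109 sites the distance was divisible by 3 at 62.4%, but only 59 of these distances (54.1%) were at most 18 nt. Among those 59 closer sites, which are nearer in distance to the 41, it was divisible by 3 at 45. The share of the shorter intron among the reads of the site ran from 7.62% to 83.5% in the control mean, with a median of 54.4%.

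After spk-1(RNAi) these shares differed in both directions, 18 higher and 23 lower. In a test of each site's introns against each other, added after the data were seen, 0 of 41 sites passed in diffSpliceDGE, against 1.33% of all 150 sites, and 0 had an unadjusted p below 0.05, against 5.33%. With the replicate block 0 passed, against 5.33% of all sites, and 1 had an unadjusted p below 0.05, against 14%. The largest change was at a donor of F48D6.4 on chromosome X, where the introns of 43 nt (4246821 to 4246863) and 51 nt start together. The 43 nt intron took 63.0%, 59.0%, 68.7% and 64.5% of the reads in control replicates 1 to 4 and 58.5%, 46.8%, 58.6% and 27.7% in spk-1(RNAi) replicates 1 to 4.

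All 4 spk-1(RNAi) libraries of F48D6.4 were below all controls, from 83 to 1110 reads per library at the site, and spk-1(RNAi) replicate 4 stood lowest. The gap was narrow, from 59.0% in control replicate 2, with 83 reads, to 58.6% in spk-1(RNAi) replicate 3. The site was named as the largest change, and it was the 1 site of the 41 without overlap. Overlap was not counted at the other 109 sites. The adjusted p was 0.969 without the block and 0.258 with it in diffSpliceDGE. At a donor of R02F2.1 on chromosome III, the 45 nt intron (5505164 to 5505208) took 53.1% ± 3.36 in controls and 61.7% ± 4.13 after spk-1(RNAi), higher in all 4 pairs (SD, n = 4 in each group). That of adr-1, which codes for a protein of the RNA-editing deaminase family, had 48.8% ± 11.3 and 36.9% ± 18.5, and C37C3.2 had 49.6% ± 8.28 and 39.5% ± 3.80. The short introns of apr-1 (a Wnt pathway protein related to APC) and ubxn-6 had 65.5% ± 14.4 and 74.1% ± 6.84, and 46.9% ± 9.32 and 39.5% ± 11.2. Neither R02F2.1 nor these 4 passed the test.

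**Figure D4:**
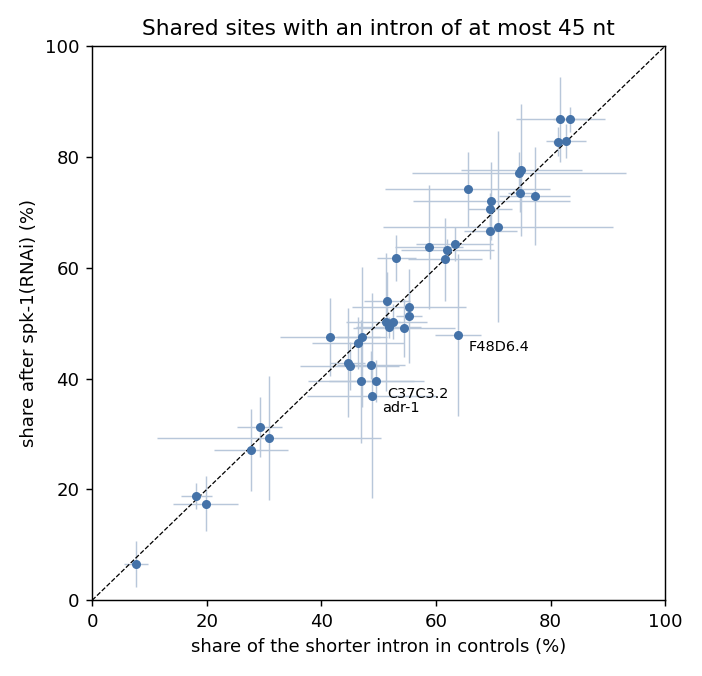
Mean share of the shorter intron among the reads of each of 41 shared sites, in percent, in controls (horizontal axis) and after spk-1(RNAi) (vertical axis), with bars for the SD of 4 libraries. The dashed line marks equal shares, and the point farthest from it is F48D6.4, at 63.8% and 47.9%.

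The authors' own p-values gave a like share for both kinds of intron. In the authors' deposited table, 21 of 2129 short introns (0.986%) and 229 of 18185 longer introns (1.26%) had a p-value below 0.01. At a p-value below 0.05 in the authors' deposited table the shares were 6.15% and 5.97%.

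Genes for splice site recognition, from U2AF and the U1 and U2 particles to SR proteins, were read by their summed junction reads. Of the 30 genes listed for this purpose, 28 had junction reads, and 0 passed edgeR's quasi-likelihood test without or with the block, as did 0 of all 5761 genes. At an unadjusted p below 0.05 there were 0 of the 28 without the block (0.92% of all genes) and 3 with it, rnp-2, rnp-7 and rsp-5 (9.58% of all genes). DESeq2 with the block called 0 of them, against 0.972% of all genes. The SR protein gene rsp-5, which has 1 short intron of its own among 3, had 267 ± 128 CPM in controls and 203 ± 89.4 after spk-1(RNAi) (SD, n = 4 in each group). The lowest unadjusted p with the block in the list was 0.0258, that of rsp-5 (adjusted p = 0.468). hrpf-1, which codes for an RNA-binding protein of the hnRNP F family and has 2 short introns of 3, stood at 67.8 ± 5.07 CPM and 67.6 ± 14.8.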

How the data were processed

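Members and lists were chosen with earlier results of these data known. Per the file headers, the authors deposited read counts per intron and library, not normalized, with a ratio per numbered pair (unscaled spk-1(RNAi) over control) and a p-value per intron from the normalized ratios. Per the submitters' processing notes, TopHat 1.4.1, Bowtie2 2.0.0 and build ce10 were named, without roles; the read counter is not given in the sources used here. Every listed intron had at least 21 reads in every control library but as few as 1 after spk-1(RNAi), so introns gained after spk-1(RNAi) can be missing from the table. The same heading stood over a pair of spk-1(RNAi) columns, and their replicate numbers 1 and 4 were taken from the authors' ratios, which equalled the quotient of the reads for 100% of introns at the same number and for at most 1.74% at others. Starts are given counted from 1 in ce10. Names, strand, intron rank and coding place came from an annotation of another build.

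Counts were fitted over all introns or genes with edgeR 4.0.16 (glmQLFit, glmQLFTest, diffSpliceDGE), limma 3.58.1 and DESeq2 1.42.0 in R 4.3.3. Libraries were scaled by TMM, the model held group alone, and p-values were adjusted by Benjamini-Hochberg with a threshold of 0.05. The scripts were tested on simulated data. The simulated counts held no differences between replicate numbers beyond depth, so they do not measure what the fit by group can find in these libraries. Replicate numbers pair the libraries: deviations from the group mean correlated by 0.648 to 0.87 between same-numbered libraries over introns, as computed from the counts, and the authors' ratios use the same numbers. Replicates 3 and 4 were also alike across numbers: control replicate 3 correlated by 0.679 with spk-1(RNAi) replicate 4, above its 0.659 with spk-1(RNAi) replicate 3, and control replicate 4 by 0.642 with spk-1(RNAi) replicate 3. Replicate number as a block was therefore an alternative beside the fit by group. Further alternatives were RLE scaling, a minimum mean of 50 reads, leaving out each library or pair, pairs 3 and 4 or pairs 1 and 2 alone, limits of 43 and 50 nt, longer introns of 46 to 100 nt, and leaving out first introns or shared sites. Named introns are any called by edgeR, the 8 with the lowest p in the usage test moved alike in all 4 pairs, the 5 extremes of reads, length and level, the 6 largest changes of share, and the genes with the most short introns or the lowest p of the sums. Reads belonging to near-identical genes, or to genes that overlap, are uncertain. The median reads over a short intron ranged from 43 to 669 per library.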

Additional observations from a re-analysis of the deposited data

Results flagged for a closer look

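In 90 groups of 4 libraries tested for a library far from the other 3, 8 had one, and chance gives about 1 in 20. In spk-1(RNAi) replicate 1, 10.1% of junction reads lay over short introns, against 8.37% to 8.44% in the other 3 libraries of that group. Without the reads of spk-1 itself, these values were 10.2% and 8.39% to 8.94%. Control replicate 1 also had the highest share of its group, 10.03%.

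The 44 nt intron of E02H1.5 had 1478% of the mean of the gene's longer introns in control replicate 2, against 272% to 303% in the other controls, and 1964% in spk-1(RNAi) replicate 2, against 39.6% to 198%. Library 2 of both groups stood apart in the same direction. Without replicate 2 the remaining spk-1(RNAi) libraries were all below the remaining controls, and with the replicate block its usage differed by −0.94 ± 0.31 on the log2 scale (SE, adjusted p = 0.71 in edgeR's diffSpliceDGE) and did not pass.

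The 45 nt intron of cka-1 had 248% in control replicate 2, against 59.0% to 88.4%. The 45 nt intron of rpl-24.1 had 59.5% in spk-1(RNAi) replicate 2, against 98.4% to 104%, and control replicate 2 was low as well, at 57.4%. The 44 nt intron of par-5 had 30.2% in control replicate 1, against 16.2% to 16.7%. The 38 nt intron of K01G5.8 had 608% of the gene's only longer intron, which shares its donor, in spk-1(RNAi) replicate 1, against 203% to 249%. The 36 nt intron of vbh-1 had 118% in spk-1(RNAi) replicate 3, against 64.8% to 71.0%.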

How the results depend on the processing

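Of 114 comparisons of a main result with an alternative, 107 stayed within the limits set and 7 moved. Calls of reads per short intron rose from 0 to 6 in pairs 3 and 4 alone, to 4 in DESeq2 with the replicate block and to 1 (pud-4) with the block but without replicate 3, and ranged from 0 to 1 with a library or pair left out. Calls of usage rose from 0 to 2 and of sums per gene from 0 to 1 (pdzd-8) in pairs 3 and 4 alone, and the replicate block alone gave 0 in each. The median level of short against longer introns, −0.13 on the log2 scale, became −0.06 both with a limit of 50 nt (−0.0557) and with median reads per intron (−0.0639). The median change stayed between 0.0006 and 0.0411 with a library left out and was −0.02 with a limit of 43 nt, within its spread over pairs. Of 234 values of 13 named introns, 230 kept direction and call, 2 became calls and 2 reversed: K04G7.1 was 0.35 in pairs 1 and 2 alone, and F30F8.1 was 0.016 without control replicate 2 and ran from −1.31 to 0.016 with a library left out. The cause of these moves was not tested. The shallow libraries, with a median of 43 to 208 reads per short intron in replicates 1 and 2, limit what can be seen in a single intron, and introns retained in the messenger were not measured.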
